A study of Mus musculus with 6 samples.

Results

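The RNA of an old IEL fraction that the labels call others was compared with the RNA of old IEL CD4 T cells, both from the small intestine of mice aged 89 weeks, with 1 array on each side. The comparison was made over the 16912 of 23473 probes that had a value on both arrays, and differences were read from the 5285 of these whose brighter signal was over 100. A further 3079 probes had a value on the old IEL others array only, 75 had one on the old IEL CD4 array only, and 3407 had none on either.

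All groups were male C57BL/6 mice with no transgene, deletion or treatment named. The 6 arrays hold old IEL others, old IEL cd27cd28, old IEL CD4 and old SP CD4 (89 weeks), and young IEL CD4 and young SP CD4 (5 weeks), where IEL are the lymphocytes of the small intestinal epithelium and SP is the spleen. The protocol attached to every array describes 1 sort, CD3+CD4+ cells at a purity above 98%, and no gate is given for the others or the cd27cd28 fraction, so both names are used as the labels give them. Each group came from 4 to 6 mice, and pooling is not stated. With 1 array per group there is no spread between animals and no test. The only error that could be measured is that between spots of 1 array: control spots gave an SD of 0.17 for a log2 difference between the old IEL others and old IEL CD4 arrays.

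IEL are T cells that lie between the epithelial cells of the gut, in contact with enterocytes, with mucus-making goblet cells and, at the crypt base, with Paneth cells, which secrete antimicrobial alpha defensins and lysozyme. Most IEL are cytotoxic, carry the integrin CD103 that binds E-cadherin on the epithelium, and many express the CD8 alpha homodimer and receptors shared with natural killer (NK) cells. CD4+ IEL can take on such features.

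The values are normalised intensities on a linear scale on which the median of each array was 25. On this scale the old IEL others array was brighter almost throughout. The median signal of the shared probes was 37.3 on the old IEL others array and 25.2 on the old IEL CD4 array, and the median log2 difference was 0.53. This shift varied with signal, and in 10 equal bins of mean signal its median was highest in bin 2, at 0.75, and lowest in the brightest bin, at 0.39. Calls are therefore given below as measured and relative to this shift, that is, after 0.53 was subtracted, and a log2 difference with no further remark is as measured. The array had a value for 19991 probes, against 19801 for old IEL cd27cd28, 16987 for old IEL CD4 and 17379 to 19234 for the remaining arrays.

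Below, called means a difference of over 2-fold with the brighter array over a signal of 100. By this rule 159 probes were higher on the old IEL others array and 7 were lower, which is 3.01% and 0.132% of those considered. After the shift was subtracted 48 probes were higher and 42 lower (0.908% and 0.795%), so the share of calls that were higher was 95.8% as measured and 53.3% relative to the shift. Averaged per gene, 139 of 4489 genes were higher (3.1%) and 6 lower (0.134%), and relative to the shift 42 were higher (0.936%) and 34 lower (0.757%). Most differences were small: the central 90% of the probes over 100 lay between -0.02 and 0.90 on the log2 scale. Of the 139 genes called higher as measured, 7 were of the histone H2A family and a further 97 were on none of the gene lists. Of the 42 genes higher relative to the shift, 10 were on the enterocyte or on the goblet, Paneth and enteroendocrine lists, 8 on the proliferation list and 3 on the myeloid and antigen presenting list. Of the rest, 3 were of the histone H2A family and a further 18 were on no list, among them a further 5 alpha defensins. Of the 34 lower ones, 5 were on the NK, Ly49 and natural IEL lists 4 on the heat shock or immediate early lists and 24 on no list.

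**Figure D1:**
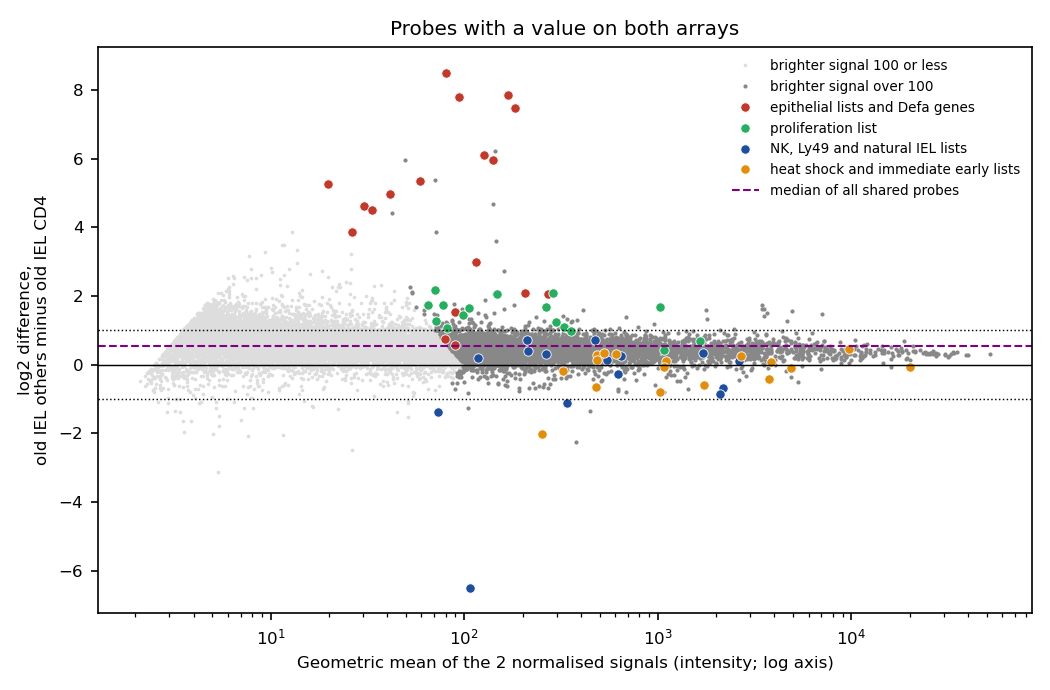
log2 difference, old IEL others minus old IEL CD4, of each probe with a value on both arrays against the geometric mean of its normalised signals (log axis), with 1 array on each side. The dashed line is the median of all shared probes (0.53) and the dotted lines mark 2-fold. Epithelial genes reach 8.50, proliferation genes lie between 0.43 and 2.17, and Klra5 lies at -6.50.

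The largest differences were in genes of the gut epithelium. The 4 highest were alpha defensins, the antimicrobial peptides of Paneth cells. Defa24 had a signal of 1526 on the old IEL others array, 27.9 on old IEL cd27cd28 and 4.2 on old IEL CD4. Defa22 had 2564, 25.7 and 11 on the same arrays. Defa17 had 1399.8, 23.5 and 6.3. These are differences of 363-fold for Defa24, 233-fold for Defa22 and 222-fold for Defa17, and Defa23 (2457, 38.5 and 13.7) differed 179-fold. The young IEL CD4 array stood at 12 for Defa24 and 15.8 for Defa22, so of the IEL arrays the old IEL others array alone had signals of these genes over 100. In bulk RNA a larger number of cells of a type and more RNA per cell cannot be told apart.

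All 10 alpha defensins with a named probe were high on the old IEL others array. The 7 with a value on both arrays were called higher, as measured and relative to the shift, with log2 differences of 2.05 to 8.50 and a median of 7.49. The lowest 3 of these, Defa32, Defa33 and Defa34, already had signals of 40.6, 133.2 and 100.3 on the old IEL CD4 array and 55.2, 182.3 and 126.7 on the young SP CD4 array, and the spleen holds no Paneth cells. The other 3 had no value on the old IEL CD4 array and can be given only as bounds against its lowest value, 2.5: Defa39 (903.8 on the old IEL others array) was at least 362-fold higher, Defa21 (369.9) at least 148-fold and Defa36 (354.3) at least 142-fold. The defensin genes are close copies, and a probe of one can bind the RNA of another, so the levels of single copies are uncertain.

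Since these genes moved together, their promoters are shown. RefSeq (GRCm38.p6) held windows for 5 of the 10, of which Defa22 and Defa23 are printed, as the 250 bases before the start on the + strand of chr8:21162027-21162276 and chr8:21054790-21055039. Capitals mark TATAAA, the TATA box, and ATCAAAG, a core of the sites bound by TCF and LEF factors of the Wnt pathway.
Defa22: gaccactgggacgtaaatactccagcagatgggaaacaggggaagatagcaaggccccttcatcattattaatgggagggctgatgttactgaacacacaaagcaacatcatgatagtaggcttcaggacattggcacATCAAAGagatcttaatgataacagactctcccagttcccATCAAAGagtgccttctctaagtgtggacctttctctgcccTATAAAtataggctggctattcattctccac
Defa23: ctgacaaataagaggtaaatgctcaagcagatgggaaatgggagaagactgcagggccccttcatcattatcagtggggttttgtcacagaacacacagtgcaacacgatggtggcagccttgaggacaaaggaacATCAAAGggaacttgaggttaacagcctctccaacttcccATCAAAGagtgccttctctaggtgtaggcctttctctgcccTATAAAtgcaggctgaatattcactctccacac

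Both windows held ATCAAAG 2 times, at -112 and -72 in Defa22 and at -114 and -74 in Defa23 counted from the start, and TATAAA 1 time, at -31 in Defa22 and at -33 in Defa23. The 250 bases of Defa21 were identical to those of Defa22, and the aligned windows of Defa22 and Defa23 were 78.3% identical. Searched on both strands, ATCAAAG was found in 3.21% of all 32851 promoter windows of this length and TATAAA in 12.4%. The window of Defa36 held ATCAAAG 1 time, at -127, and that of Lyz1, also higher on old IEL others, held none. Klra6, which was called lower, held it 1 time, at -106 on the other strand. Such matches describe the letters and are not evidence of binding.

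Other epithelial genes stood with the defensins. Lgals2, a galectin of the gut, had a signal of 1248 on the old IEL others array, 34.9 on old IEL cd27cd28 and 16.8 on old IEL CD4, which is 74.3-fold over old IEL CD4. Reg3b, a secreted antimicrobial lectin of the epithelium, had 1055, 27 and 15.2 (69.4-fold over old IEL CD4). Reg3b differed from the rest in that it was also bright on the young IEL CD4 array, at 448. Its relative Reg3g followed at a lower level, with 149.1 on old IEL others, 6.1 on old IEL CD4 and 44.4 on young IEL CD4.

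Lyz1, the lysozyme of Paneth cells, had 1102 on the old IEL others array and 17.8 on old IEL CD4 (61.9-fold). Of the keratins of simple epithelia, Krt8 had 376.5 against 9.3 and Krt19 232.2 against 7.4 on old IEL CD4. Krt18, the partner of Krt8, differed less, with 151.6 on old IEL others, 111.8 on old IEL cd27cd28 and 52.7 on old IEL CD4 (1.52), and at 0.99 relative to the shift it was not called there. Genes of goblet cells were ordered alike: Agr2, a protein disulfide isomerase needed for mucin folding, had 122.6 against 3.2, and Tff3, a trefoil peptide, 159.3 against 7. Zg16 (273.1 against 18.7) and Cdh17 (195 against 9.1), a lectin of mucus and a cadherin of the gut, were named after their values were seen.

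On the goblet, Paneth and enteroendocrine list all 8 genes with a signal over 100 were called higher, against 3.1% of all genes, and all 8 remained so relative to the shift, against 0.936%. None of the 8 exceeded 17.8 on old IEL CD4. They thus passed the signal minimum through old IEL others alone and had to be called higher, so this count was set by the filter. Their median log2 difference was 5.61, against 0.45 over all 4489 genes. Over the 14 list genes with a value on both arrays the median was 4.18. All 8 had their highest level of the 6 arrays on old IEL others, as had 16.3% of all genes. On the enterocyte list 3 of 5 genes over 100 were called higher, and 2 relative to the shift, beside the same 3.1% and 0.936%. These 3, Krt8, Krt18 and Krt19, also passed the signal minimum through old IEL others alone. Over the 16 list genes with a value on both arrays the median log2 difference was 0.84. Below 100, Epcam, the adhesion molecule of epithelial cells, had 58.7 on old IEL others and 11.3 on old IEL CD4. Other epithelial genes were near the shift: Muc2, the main goblet mucin, had 72.7 against 46.2, Vil1 80.5 against 43.3, and Fabp2 93.5 against 75.3. Summed over the 19 probes of the goblet, Paneth and enteroendocrine list the signal was 6124 on old IEL others, 329.6 on old IEL cd27cd28, 160.4 on old IEL CD4 and 738 on young IEL CD4. Among genes with no value on the old IEL CD4 array were Itln1, an intestinal lectin (246.1 on old IEL others, at least 98.4-fold), Tspan8 (150.7, at least 60.3-fold) and Lypd8 (148.8, at least 59.5-fold). In all, 8 probes over 100 had a value on old IEL others only, and none over 100 had one on old IEL CD4 only, where the brightest such probe was at 24.9.

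**Figure D2:**
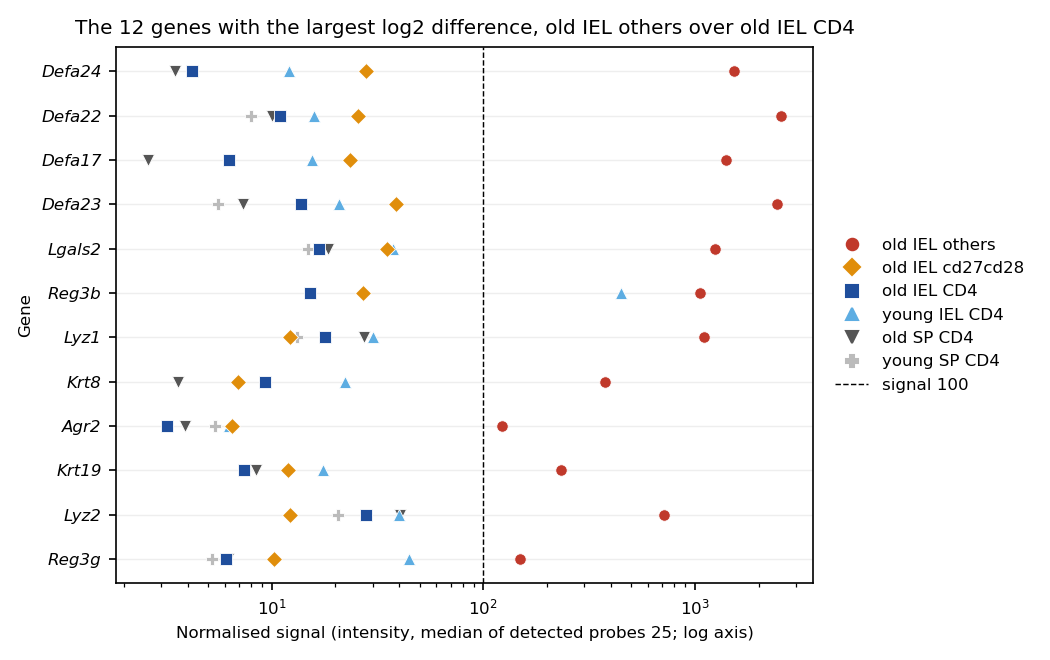
Normalised signal (log axis) of the 12 genes with the largest log2 difference between old IEL others and old IEL CD4, on each of the 6 arrays (1 point per array, no point where there is no value). The old IEL others array lies over 100 for every gene and the other arrays lie under 50, except Reg3b on young IEL CD4 (448).

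T cell markers had signal on both arrays. Cd3e, the signalling chain of the T cell receptor complex, had a signal of 228.8 on old IEL others, 306.3 on old IEL cd27cd28 and 142.9 on old IEL CD4. Its log2 difference of 0.68 was 0.15 above the shift. Cd4 had 665.8 on old IEL others, 894.2 on old IEL cd27cd28 and 434 on old IEL CD4, a difference of 0.62 that was 0.08 above the shift. Of the 13 genes over 100 on the T cell identity list none was called in either direction, with differences of 0.27 to 0.83 and a median of 0.61. Markers of the labelled cell type were thus present on the old IEL others array, beside the epithelial transcripts. The list of gamma delta T cell markers had a named probe for 9 of its 26 genes and none for the constant and variable segments, and none of its 4 genes over 100 was called.

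The CD8 genes were bright on both. The brighter of the 2 Cd8a probes had 15482 on old IEL others, 18267 on old IEL cd27cd28 and 16341 on old IEL CD4, against 1572 on young IEL CD4, and both Cd8a probes were lower than the shift (-0.61 and -0.57 relative to it). Cd8b1, the beta chain of conventional CD8 T cells, had 555.4 on old IEL others, 611.2 on old IEL cd27cd28 and 232.1 on old IEL CD4. This difference of 1.26 was called as measured, and was 0.73 relative to the shift and not called there. The remaining arrays, all labelled CD4, had Cd8b1 signals of 646.8 (young IEL CD4), 466.8 (young SP CD4) and 322.5 (old SP CD4). Old IEL CD4 was thus the lowest of all arrays for Cd8b1, and a signal of this size was not particular to old IEL others.

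Cd28 and Cd27, costimulatory receptors whose names appear in the label cd27cd28, were not called between old IEL others and old IEL CD4. Cd28 had 4621 on old IEL others, 852.7 on old IEL cd27cd28 and 4257 on old IEL CD4. Cd27 was dim throughout, with 65.6, 38.1 and 38.7. Several genes of helper and circulating T cells behaved like Cd28. S1pr1, the receptor that lets T cells leave tissue, had 556.4 on old IEL others, 8 on old IEL cd27cd28 and 494.6 on old IEL CD4. Izumo1r, a folate receptor of regulatory and helper T cells, had 2140, 145.3 and 1086, and Cxcr5, the chemokine receptor of follicular helper T cells, 199.2, 15.2 and 115.8. Tnfrsf4 (1230, 152.8 and 769.8), Icos (475.1, 150.5 and 285.6) and Ccr6 (734.4, 84.1 and 531.9) were ordered in the same way. All of these were lowest of the old IEL arrays on old IEL cd27cd28. As measured each was highest on old IEL others, but relative to the shift Cd28 (-0.41) and S1pr1 (-0.36) were lower on old IEL others than on old IEL CD4. Ccr6 (-0.07) lay within the spot SD of 0.17 of the shift, and the shift itself was smaller in bins 9 and 10 of signal (0.44 and 0.39). Not all helper genes followed this order. On the CD4 lineage and helper list, 2 of 9 genes over 100 were higher on old IEL cd27cd28 than on old IEL others, against 2832 of all 4489. These were Cd4 and Cd5 (1463, 2218 and 955.7), and Batf, of the Th17 list, was also highest there (1473, 2346.5 and 1034).

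Over all probes, 485 of 5339 were higher on old IEL cd27cd28 than on old IEL CD4 (9.08%) and 76 lower (1.42%), and relative to its own shift of 0.61, 32 were higher (0.599%) and 199 lower (3.73%). This comparison shares the old IEL CD4 array with the main one, so the values stand side by side and their overlap was not read as a result. Of the 9 genes over 100 on the CD4 lineage and helper list, 1 was called higher on old IEL others and none lower, and relative to the shift none was called. On old IEL cd27cd28, 2 of the same 9 genes were more than 2-fold higher than on old IEL CD4 and 3 lower. Relative to its shift none was higher and 5 were lower. The lower ones include Il2, which was under 100 on both arrays (22.5 and 68.8) and so was not called by the rule. Of all genes over 100 on old IEL cd27cd28 or old IEL CD4, 9.31% were called higher and 1.3% lower, and relative to the shift 0.53% and 3.4%.

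The genes that were lower on the old IEL others array were few. Of the 6 called, 3 were receptors of NK cells and natural IEL: Klra5, with the largest difference, Klra6 and Klre1. Irs2 (-2.24) and Hspa1a (-2.02) differed by more than Klra6 and Klre1. Klra5, an inhibitory receptor of the Ly49 family, had a signal of 11.2 on old IEL others, 8 on old IEL cd27cd28 and 1013 on old IEL CD4, a log2 difference of -6.50. The old IEL CD4 array alone was high, since Klra5 was at 54.3 on young IEL CD4 and at 3.1 and 9 on the old and young SP CD4 arrays. Klra6, of the same family, had 44.9, 14.7 and 118 on the old IEL arrays in the same order (-1.39). Of the 10 Ly49 genes with a named probe, only these 2 were over 100.

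The promoters of Klra5 and Klra6, the 2 Ly49 genes called lower, are shown as the 250 bases before the start on the - strand, chr6:129913225-129913474 and chr6:130026955-130027204. TATAAA is in capitals.
Klra5: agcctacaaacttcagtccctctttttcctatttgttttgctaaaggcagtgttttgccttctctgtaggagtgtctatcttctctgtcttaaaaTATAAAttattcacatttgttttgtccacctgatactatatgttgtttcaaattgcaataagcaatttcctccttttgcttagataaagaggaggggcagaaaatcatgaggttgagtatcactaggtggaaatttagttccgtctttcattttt
Klra6: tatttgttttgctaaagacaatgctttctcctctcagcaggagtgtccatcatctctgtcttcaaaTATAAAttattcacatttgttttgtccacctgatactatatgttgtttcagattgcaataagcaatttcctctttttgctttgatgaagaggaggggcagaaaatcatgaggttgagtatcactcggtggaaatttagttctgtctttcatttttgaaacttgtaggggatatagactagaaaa

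The aligned windows were 73.1% identical, and TATAAA lay at -155 in Klra5 and at -184 in Klra6. Ly49 genes are close copies as well, so the probes cannot be assigned to single members with certainty.

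Klre1, Klrd1 and Fcer1g lay between the other old IEL arrays. Klre1, a lectin-like receptor of NK cells, had 229.7 on old IEL others, 28.4 on old IEL cd27cd28 and 497 on old IEL CD4, a difference of -1.11. Klrd1, the CD94 chain, had 1701, 366.1 and 2744.5, a difference of -0.69. Fcer1g, the ITAM adaptor that carries activating receptors, had 1559.6, 131.2 and 2825, a difference of -0.86. The last 2 were not called as measured and were called lower relative to the shift (-1.22 for Klrd1 and -1.39 for Fcer1g). All 3 were lower on young IEL CD4 (11.1 for Klre1, 167.6 for Klrd1 and 201 for Fcer1g) than on old IEL others. The NKG2 genes were dim and did not follow this order, with Klrc1 at 39.5 on old IEL others, 14.8 on old IEL cd27cd28 and 31.3 on old IEL CD4. Other dim lectin receptors were higher on old IEL others than on old IEL CD4: Klri2 (71.4 against 20.7), Klrb1c (24.1 against 8.7) and Klrg1 (9.4 against 3.5). Tnfrsf9, which the paper counts with Klrd1, Klre1 and Fcer1g among natural IEL features, had 206.7 against 89.2. It was called higher as measured (1.21) but not relative to the shift (0.68). On the NK cell lectin receptor list 1 of 5 genes over 100 was called lower, and 2 relative to the shift, against 0.134% and 0.757% of all genes.

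On the natural IEL receptors and adaptors list 2 of 12 genes over 100 were called lower, against 0.134% of all genes, and 4 relative to the shift, against 0.757%. The list did not move as one. Over all 4489 genes 4255 were higher as measured and 234 lower, and their median lay -0.09 from the shift. As measured 7 of the 12 list genes were higher and 5 lower, and 2 lay above the shift and 10 below it. Among the higher ones, Lilr4b had 189.5 on old IEL others and 111 on old IEL CD4 (0.77), and Cd200r4 272 and 165.2 (0.72). Cd160, an Ig-family receptor of cytotoxic lymphocytes, had 705.9 on old IEL others and 593.4 on old IEL CD4 (0.25, or -0.28 relative to the shift). The cytotoxic effectors were not called. Gzmb, a granzyme, had 39560 on old IEL others, 49613 on old IEL cd27cd28 and 30757 on old IEL CD4, and Gzma 10377, 16059 and 7948. None of the 11 cytotoxic genes over 100 was called, with a median of 0.22 that lay -0.31 from the shift, and 10 of the 11 were higher on old IEL cd27cd28 than on old IEL others, as were 2832 of all 4489 genes.

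**Figure D3:**
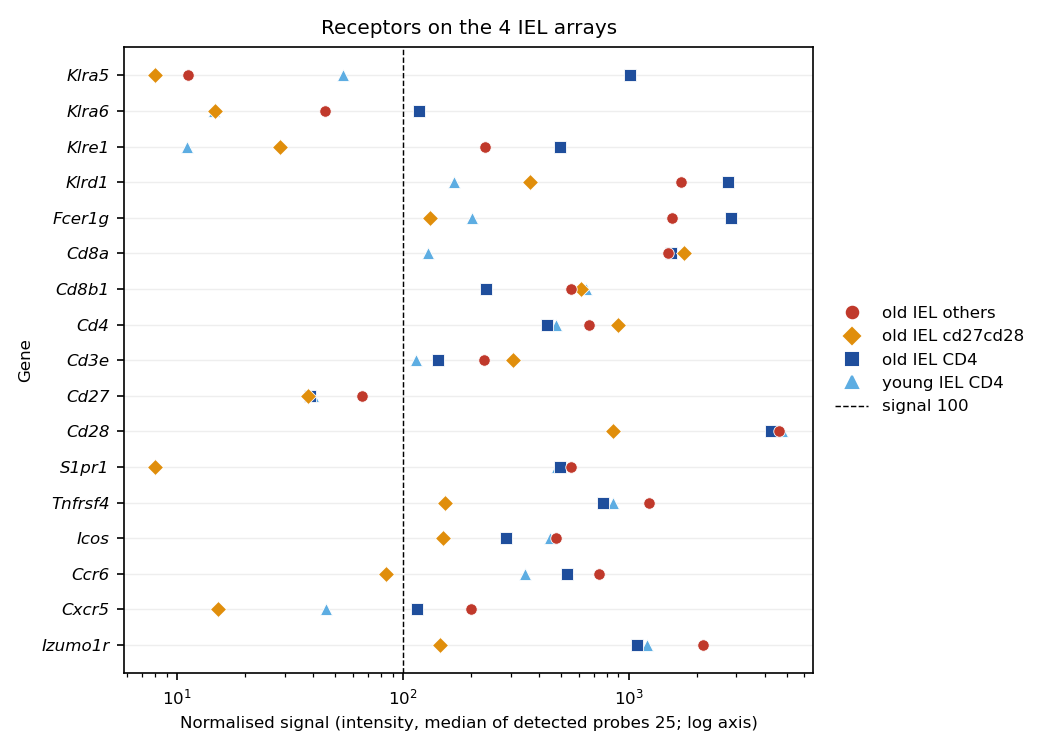
Normalised signal (log axis) of 17 receptor and adaptor genes on the 4 IEL arrays, 1 point per array (Cd8a is the mean of 2 probes on the log2 scale). From Klra5 to Fcer1g the old IEL others array lies under old IEL CD4, and from Cd28 to Izumo1r it lies at or above old IEL CD4 while old IEL cd27cd28 is lowest.

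The other 3 genes called lower were Irs2, Hspa1a and Snrpn, of which Hspa1a is on the heat shock list and the others on none. Irs2, an adaptor of the insulin receptor, had 174.2 on old IEL others, 187.9 on old IEL cd27cd28 and 825.6 on old IEL CD4 (-2.24). Hspa1a, the inducible heat shock protein of the HSP70 family, had 124.6, 209.3 and 505.5 (-2.02). Irs2 and Hspa1a were thus high on the old IEL CD4 array and low on both further fractions, and Hspa1a was also at 434.3 on old SP CD4 while the young arrays had 31.9 (IEL) and 24.1 (SP). Of 8 heat shock genes over 100, 1 was called lower (0.134% of all genes), and 2 relative to the shift (0.757%), with a median of 0.00 as measured.

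Immediate early genes, transcription factors induced within minutes of a stimulus, had a median of -0.06. None of the 9 over 100 was called as measured, and Jund and Jun were called lower relative to the shift (0.757% of all genes). Jund had 777.6 on old IEL others, 1394 on old IEL cd27cd28 and 1349 on old IEL CD4, and Jun 379.3, 763.3 and 599.4. Klf4, a factor of quiescent T cells, had 817.1, 619 and 1416, and Nr4a2, an orphan nuclear receptor induced by the T cell receptor, 479.1, 734.7 and 813.1. Snrpn, the last of the 6 genes called lower, had 67.3, 93.4 and 161.7. For these genes the old IEL others array was the lowest of the old IEL arrays, except for Klf4, where old IEL cd27cd28 was lower.

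Genes of dividing cells were higher on the old IEL others array than on old IEL CD4. Of the 16 genes over 100 on the proliferation list 13 were called higher, against 3.1% of all genes, and 8 relative to the shift, against 0.936%, with a median log2 difference of 1.54. Some of them, such as Tk1, passed the signal minimum through old IEL others alone. Over the 22 list genes with a value on both arrays the median was 1.60. Tk1, the thymidine kinase of S phase, had 149.9 on old IEL others, 79.9 on old IEL cd27cd28 and 33.2 on old IEL CD4 (2.17). Birc5, or survivin, of the chromosomal passenger complex, had 588.2, 299.9 and 139.5 (2.08). Ccna2 and Ccnb2, the mitotic cyclins, had 299.4, 126.4 and 72.1 (2.05) and 118.8, 76 and 35.7 (1.73). The order of these 4 genes was the same, with old IEL others first, old IEL cd27cd28 between and old IEL CD4 last. Of the 16, 14 were higher on old IEL others than on old IEL cd27cd28, as were 1655 of all 4489 genes, and 14 were higher on young IEL CD4 than on old IEL others, as were 729 of all. Birc5 had 694 on young IEL CD4, Ccna2 424 and Tk1 202.

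Ccnb2 and Top2a (140.9, 72 and 42.6 on the old IEL arrays in the same order) are shown for their promoters, since these genes moved together. The windows are the 250 bases before the start on the - strand, chr9:70421555-70421804 and chr11:99024190-99024439. Capitals mark CCAAT, bound by NF-Y, and TTTGAA, the sequence of the cell cycle genes homology region, on either strand, so that ATTGG and TTCAAA are their reverse complements.
Ccnb2: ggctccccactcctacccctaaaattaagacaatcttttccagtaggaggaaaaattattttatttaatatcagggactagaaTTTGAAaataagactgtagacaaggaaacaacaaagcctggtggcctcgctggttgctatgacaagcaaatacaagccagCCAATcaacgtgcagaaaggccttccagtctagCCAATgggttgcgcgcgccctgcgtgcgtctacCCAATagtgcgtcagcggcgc
Top2a: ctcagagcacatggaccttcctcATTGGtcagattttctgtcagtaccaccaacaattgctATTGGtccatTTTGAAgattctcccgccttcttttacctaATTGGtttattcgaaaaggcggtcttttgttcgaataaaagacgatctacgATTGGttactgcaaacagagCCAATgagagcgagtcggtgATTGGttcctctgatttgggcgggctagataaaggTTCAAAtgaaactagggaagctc

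Ccnb2 held CCAAT 3 times between -87 and -21 and TTTGAA at -167, and Top2a held CCAAT 6 times between -227 and -58 and TTTGAA at -179 and -23. None of the capitalised matches overlapped another. Over all windows CCAAT was found in 33.8% and TTTGAA in 5252 of the 32851. The windows of Tk1 and Birc5, higher by as much, held neither.

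The core histones of replication followed, in part. Of 9 H2ac probes over 100, which measure histone H2A genes made in S phase, 8 were called higher (3.01% of all probes), 4 of them relative to the shift (0.908%), with H2ac20 at 6311 on old IEL others, 5187 on old IEL cd27cd28 and 1894 on old IEL CD4. The same 8 probes were also more than 2-fold higher on old IEL cd27cd28 than on old IEL CD4, by 1.12 to 1.45 as measured (9.08% of all probes). Of 7 probes of other histone genes over 100, 2 were called higher and none relative to the shift. H2ac genes are near-identical copies, so these probes do not measure separate genes with certainty. Cell cycle genes outside the list that were called higher relative to the shift included Cdc45 (245.3 on old IEL others against 66.1 on old IEL CD4), Cks1b (708.6 against 237.4) and Nusap1 (289.6 against 69.8), named after their values were seen.

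**Figure D4:**
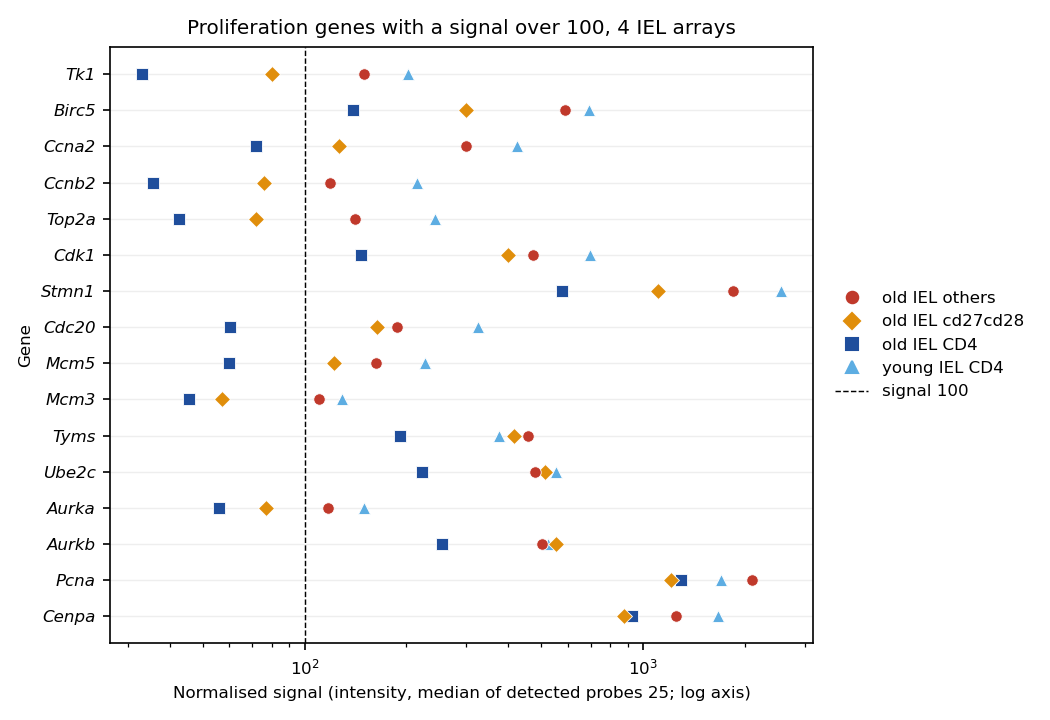
Normalised signal (log axis) of the 16 proliferation genes with a signal over 100 on the 4 IEL arrays, 1 point per array, ordered by the difference between old IEL others and old IEL CD4. The old IEL others array lies above old IEL CD4 for all 16, and young IEL CD4 lies above old IEL others for 14.

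Several antigen presenting genes were also higher on the old IEL others array. All 5 genes over 100 on the myeloid and antigen presenting list were called higher (3.1% of all genes), 3 of them relative to the shift (0.936%). All but H2-Aa passed the signal minimum through old IEL others alone, with 27.8 to 50.7 on old IEL CD4. Such genes had to be called higher as measured, or nearly so, and this count was largely set by the filter. Over the 9 list genes with a value on both arrays the median log2 difference was 1.58. H2-Eb1, an MHC class II chain, had 162 on old IEL others, 53.2 on old IEL cd27cd28 and 47.8 on old IEL CD4 (1.76). Cd74, the invariant chain of MHC class II, had 107.2, 21.7 and 35.8 (1.58), and H2-Aa 379.7, 99.3 and 145.3 (1.39). Other MHC class II genes over 100, which were outside the list, lay near the shift and were not called. H2-DMa had 199.9, 216 and 138.4 (-0.002 relative to the shift), and H2-DMb1 125.7, 105.5 and 80.8 (0.10 relative to it). MHC class II is made by professional antigen presenting cells and also by enterocytes. Lyz2, the lysozyme of macrophages, had 713.1, 12.2 and 27.8, and its sequence is close to that of Lyz1, so its probe and that of Lyz1 cannot be fully separated. Cd68, a lysosomal protein of macrophages, had 102.8, 89.4 and 50.7 (1.02, or 0.49 relative to the shift), and C1qb, a complement gene of macrophages, 62.1, 6.3 and 15.6. Of the 20 genes of the list 7 had no value on old IEL others, among them Itgam, Adgre1, Fcgr1 and S100a9, and 11 had none on old IEL CD4. The summed signal of the list was 1649.5 on old IEL others, 403.6 on old IEL cd27cd28 and 375.8 on old IEL CD4, of which Lyz2 made the largest part. Among B cell markers, Cd79b was the only 1 over 100 and had 120.5 on old IEL others and 107.6 on old IEL CD4.

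A few cytokine genes of helper T cells were called higher as measured but not relative to the shift. Of 8 cytokine genes over 100, 3 were called higher (3.1% of all genes) and none relative to the shift (0.936%). Il2, the T cell growth factor, had 171.2 on old IEL others, 22.5 on old IEL cd27cd28 and 68.8 on old IEL CD4 (1.32), and Il17f, a Th17 cytokine, 135.5, 20.1 and 55.7 (1.28). Tnf had 167.5, 255.3 and 72.6 (1.21). All 3 were over 100 on old IEL others and under it on old IEL CD4. Relative to the shift Il2 (0.78), Il17f (0.75) and Tnf (0.67) stayed higher, by less than 2-fold. Il2 and Il17f were thus lowest on old IEL cd27cd28, whereas Tnf was highest there. Outside the lists, Iltifb, an interleukin 22 gene, had 330 on old IEL others, 47.5 on old IEL cd27cd28 and 98.8 on old IEL CD4, and Il1b 115, 20.6 and 24.1; both were called higher under either scaling and were named after their values were seen. The chemokine Cxcl2, which draws neutrophils, had 147.1, 5.3 and 79.9, and was not called in this comparison.

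The wider machinery of the cell lay close to the shift. Of 19 oxidative phosphorylation genes over 100 none was called (median 0.55), nor was any of 10 glycolysis genes (median 0.50), 14 cytosolic ribosomal protein genes (median 0.35) or 9 housekeeping genes (median 0.45). Among 9 interferon-stimulated genes over 100 none was called, and all 9 were higher on old IEL cd27cd28 than on old IEL others, beside 2832 of all 4489 genes. Genes of gut homing and epithelial residence had a median of 0.33 over 15 genes with no call. The 2 probes of Itgae, the CD103 chain, disagreed, with 2948 on old IEL others against 2107 on old IEL CD4 for the brighter probe (0.48) and 76.7 against 110.8 for the dimmer (-0.53).

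**Figure D5:**
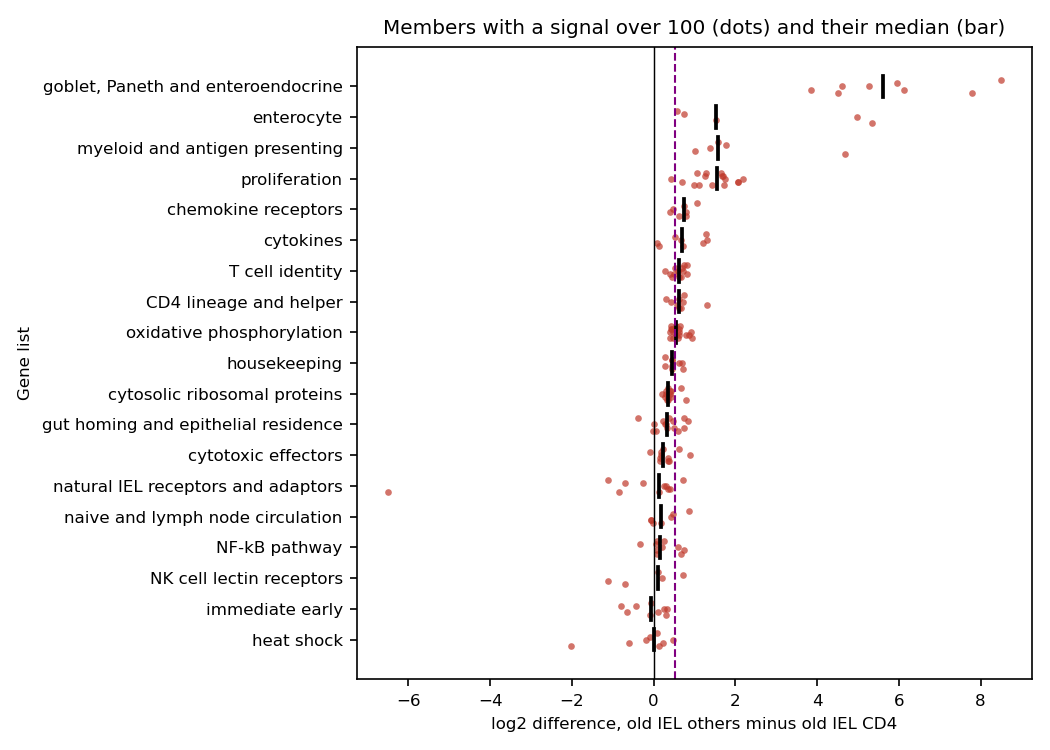
log2 difference, old IEL others minus old IEL CD4, of the members with a signal over 100 (dots, 1 gene each) of 19 gene lists, with the median of each list (bar). The solid line is 0 and the dashed line the median of all shared probes (0.53). The goblet and Paneth list has its median at 5.61 and the proliferation list at 1.54, while the lists from natural IEL receptors to heat shock have medians of 0.19 or less.

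The rule's thresholds set some of these calls. Spink4 (100.1 on old IEL others) and Kntc1 (100.5) lay just inside the signal minimum, and Rrm2 (99.8), Il17a (97.5) and Mcm10 (97) lay just outside it. Nup133 (148.3 on old IEL others against 74.1 on old IEL CD4) was just inside 2-fold and Rfesd (133.8 against 66.9) just outside, and on the lower side Klre1 (-1.11) was the last inside and Fcer1g (-0.86) the first outside. Of the 159 probes called higher, 73 were also more than 2-fold higher on old IEL cd27cd28 than on old IEL CD4, 67 were so on young IEL CD4, and 42 were more than 2-fold higher on old IEL others than on old IEL cd27cd28. All but 1 of the 7 probes called lower were more than 2-fold lower on old IEL cd27cd28 than on old IEL CD4 as well. The counts with old IEL CD4 as their base share that array and are no independent evidence of one another. The part that epithelial RNA, array-wide brightness or the unstated gates had in these differences was not tested.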

How the data were processed

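RNA was hybridised to Toray 3D-Gene mouse 24k oligonucleotide arrays, labelled with Cy5 alone and scanned at 635 nm. The deposited value table gives each probe's normalised intensity, linear, scaled by the authors so that an array's median is 25, and leaves undetected probes empty. It was used as deposited. The scanner files, also deposited, hold the intensity of the spot median and local background with 3 gains merged, and served only the alternatives and the spot error, from 24 spots each of 2 positive controls.

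Old IEL others and old IEL CD4 were compared as a log2 difference with no test, since each group had 1 array. The thresholds, 2-fold and a signal over 100, are those of the study's methods. A probe had to have a value on both arrays. Probes with 1 value were given as bounds against the lowest value of the other array. A symbol was available for 20690 probes (19321 genes), and 2783 probes were unnamed here. Where a gene had several probes, their log2 values were averaged. The number of arrays limits the precision.

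The comparison and the 40 gene lists were chosen with earlier results of these data known. Genes were named by a rule: the 12 largest differences in each direction over a signal of 100, up to 4 per list, all measured CD4 lineage, CD8 and gamma delta members, the sort markers, and the 5 brightest bounds; genes named outside it, here and in the report, were picked with their values in view. Other settings tried were scanner values with blank spots subtracted, the median subtracted, a common 75th percentile, quantile normalization, normexp with an offset of 50 (limma 3.58.1, R 4.3.3), 16 added before log2, other thresholds, missing values set to the lowest, the brightest probe per gene, and a loess curve. The steps were tested on simulated data. Python 3.11.15, numpy 2.4.6, pandas 2.3.3 and statsmodels 0.14.6 were used. The labelled age of 89 weeks was used for the old groups, where the methods give a slightly lower one. Promoters are from RefSeq.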

Additional observations from a re-analysis of the deposited data

How the results depend on the processing

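The counts of the 166 called probes depended most on scaling and thresholds. Against 159 higher and 7 lower on old IEL others, subtracting the median of all differences gave 48 and 42 (90 in all), a common 75th percentile 47 and 40 (87), quantile normalization 44 and 34 (78), and subtracting a loess curve of the difference on signal, chosen after seeing the data, 54 and 32 (86). The share of calls that were higher was 95.8% as deposited, and 53.3%, 54.0%, 56.4% and 62.8% under these 4 scalings in the same order. Normexp with an offset of 50 gave 323 higher and 111 lower (434, or 74.4% higher), with local background that tracked the spot signal (r of 0.97 and 0.98 on the old IEL others and old IEL CD4 arrays). With 16 added before log2, 104 were higher and 7 lower. No signal minimum gave 1815 and 39 (1854), a minimum of 200 gave 87 and 5 (92), and a 3-fold threshold 45 and 3 (48). Scanner values (171) and missing values set to the lowest (174) stayed within 1.5 times. The median difference of 0.53 was 0.058 at a common 75th percentile, -0.0047 under quantile normalization, 0.044 under normexp and 0.31 with 16 added. For old IEL cd27cd28 against old IEL CD4 the 561 calls, 86.5% of them higher, became 231 with the median subtracted (13.9% higher), 209 at the 75th percentile (25.4%), 210 under quantile normalization (21.4%), 217 with the loess curve (20.3%), 2835 with no signal minimum and 79 at 3-fold. Of 32 named genes that were called, of which quantile normalization gave a value for 28, none of those with a value changed sign except under normexp, where Birc5 (-0.11), Ccnb2 (-0.035), Cxcr3 (-0.27) and H2-Eb1 (-0.33) were lower; 24 stayed over 2-fold with the median subtracted, 25 at the 75th percentile, 25 with the loess curve, 21 of the 28 under quantile normalization, 15 under normexp and all 32 in the remaining settings. Of 36 lists with 3 or more genes over 100, 21 had a median of the other sign once the median of all probes was subtracted, and none with scanner values. The cause of these changes was not tested. No paired analysis was possible because each group has 1 array. Signals near the lowest value of an array have only a bound.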
